A study of Arabidopsis thaliana with 4 samples.

Results

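The COI1, MYC and JAM jasmonate regulators are 10 genes that carry the jasmonate (JA) signal from its receptor to the promoters of its target genes. They are COI1, NINJA, TPL, MYC2, MYC3, MYC4, MYC5, JAM1, JAM2 and JAM3. They were chosen by locus identifier, as known parts of the pathway, with earlier results of these data known, and make up 10 of the 33565 genes in the deposited expression table. Of the 10, 9 were above 0 in all 4 libraries, and MYC5 was listed at 0 in all 4.

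The libraries were made from whole roots of Col-0, the wild-type accession, at 7 days. Control roots had no added hormone, JA roots had 10 μM MeJA (methyl jasmonate), cytokinin roots had 50 nM BAP (a synthetic cytokinin), and JA/cytokinin roots had both hormones. Plants were grown on medium with these additions for the 7 days. The ratios below therefore compare roots after continuous growth on hormone and not after a short treatment. No mutant, transgene or Cre line is involved, and every library is a mixture of all root cell types. Each condition had 1 library, so the differences below were not checked against replicates and carry no p-value.

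JA signalling works by removal of a brake. The bioactive hormone, a conjugate of JA with isoleucine, joins the F-box protein COI1 to a JAZ repressor, and the SCF ubiquitin ligase that COI1 belongs to then marks the JAZ protein for destruction. Until then JAZ proteins hold the bHLH activators MYC2, MYC3, MYC4 and MYC5 inactive and, through the adaptor NINJA, bring in the co-repressor TPL. JAM1, JAM2 and JAM3 are related bHLH proteins without activating function that occupy the same promoter elements as the MYC proteins and lower the response. In roots JA shortens the primary root and induces defence genes, largely through COI1 and MYC2.

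Expression was deposited as FPKM, fragments scaled to the length of the transcript and to the mapped fragments of the library, so levels can be set side by side between genes. Between 98605532 and 115141812 reads were sequenced per library. From the spacing of low FPKM values, mapped fragments were estimated at 85.1% to 90.1% of the read pairs, and 3 fragments on 1 kb of transcript corresponded to 0.0729 to 0.0804 FPKM. Intervals in brackets are 95% Poisson intervals on estimated fragments, and for ratios the matching exact intervals. They cover counting error only. Genes of root identity were present throughout, with 9 of 9 markers above 0 in every library. Their summed levels were 357, 152, 347 and 182 FPKM in control, JA, cytokinin and JA/cytokinin. CASP1 alone measured 243, 65.4, 218 and 83.8 FPKM in the same order, so the sums largely follow this gene. Of the 9 root markers, 3 were higher and 6 lower with JA against control. The control library also held shoot transcripts. Its 10 leaf and stomatal markers were all above 0 and summed to 12.0 FPKM, against 3 to 5 markers and 0.323 to 0.641 FPKM in the treated libraries, where FIL, YAB5, MUTE and FAMA were listed at 0. Its 7 photosynthesis genes summed to 1693 FPKM, against 299 in JA, 68.6 in cytokinin and 39.1 in JA/cytokinin. These markers move with every comparison to control below, and their part in those results was not tested. The comparisons of JA/cytokinin with cytokinin and with JA leave the control library out, but markers differ there too. Against JA, 7 of 7 photosynthesis genes were at least 2-fold lower, with a median log2 ratio of -2.98. Against cytokinin, 2 of the 7 were at least 2-fold lower, with a median of -0.79, and of the 9 root markers 2 were at least 2-fold lower and 1 higher. Their part in those results was not tested either. As the tissue was bulk root, fewer cells of a type and less RNA per cell cannot be told apart.

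The G-box CACGTG and its variant CACATG are the letters that MYC and JAM proteins are known to bind, so the sequence before each of the 10 genes was searched for both. Sequence and gene starts were those of RefSeq for the TAIR10.1 assembly. Both strands were read, CACGTG being its own reverse complement and CACATG reading CATGTG on the other strand, and the letters of the motifs do not coincide at any match. In the 1000 bases before the start, 14.6% of 28906 genes held CACGTG and 37.9% held CACATG. JAM1 held 1 CACGTG and 4 CACATG, and as many CACATG as JAM1 were found before 0.557% of all genes. JAM2 held 2 CACGTG, as many as before 2.64% of all genes. TPL held 1 CACGTG, MYC2 and MYC5 held 1 CACATG each, and neither was found before COI1, NINJA, MYC3, MYC4 or JAM3. In the window from 250 bases before to 50 after the start, which held CACGTG at 7.51% and CACATG at 13.1% of genes, MYC5 alone of the 10 had a match. A match is a run of letters and not a bound site. The matches are shown because JAM1, which differed most in the 4 comparisons that involve JA, also has the most of them. This choice draws on the expression values, and a link between matches and expression was not tested. NINJA, higher in both libraries with JA, had no match. With cytokinin against control MYC2 differed most. Each is written from 5′ to 3′ on the strand of the gene with the motif in capitals.
JAM1, chr2:19094107-19094166, minus strand, 793 to 734 bases before the start: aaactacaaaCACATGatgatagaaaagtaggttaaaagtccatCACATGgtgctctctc
JAM1, chr2:19093667-19093847, minus strand, 474 to 294 bases before the start: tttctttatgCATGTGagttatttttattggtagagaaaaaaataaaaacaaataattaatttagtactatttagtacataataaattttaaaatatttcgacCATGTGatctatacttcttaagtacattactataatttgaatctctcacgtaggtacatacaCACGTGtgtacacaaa
JAM2, chr1:108259-108295, plus strand, 687 to 651 bases before the start: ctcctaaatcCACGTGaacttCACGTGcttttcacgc
MYC2, chr1:11801762-11801787, minus strand, 380 to 355 bases before the start: acgttgttagCATGTGtttatcgtga
TPL, chr1:5421488-5421513, minus strand, 480 to 455 bases before the start: atttctccatCACGTGatgttcgatg
MYC5, chr5:19002543-19002563, plus strand, 21 to 1 bases before the start: tcagctatcgCACATGggtcg

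Levels of the 9 measured genes spanned 1.27 to 53.7 FPKM in control roots. TPL was highest at 53.7 FPKM, followed by NINJA at 38.8 and MYC2 at 36.1. JAM3, COI1 and MYC3 came next at 22.2, 21.3 and 21.3 FPKM, and their counting intervals overlapped from one to the next. MYC4 and JAM2 lay at 10.6 and 9.18 FPKM, and JAM1 was lowest. With JA the order was MYC2, NINJA, TPL, JAM1, JAM3, MYC3, COI1, JAM2 and MYC4, and the intervals of MYC3 and COI1 overlapped. JAM1 thus stood at rank 9 in control roots and rank 4 in JA roots. With cytokinin MYC2 and TPL led with overlapping intervals, JAM1 was again lowest, and the pairs COI1 and MYC3 and JAM2 and MYC4 also overlapped. With both hormones the order was MYC2, NINJA, TPL, JAM3, COI1, JAM2, MYC3, MYC4 and JAM1, where the last 3 overlapped from one to the next.

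**Figure D1:**
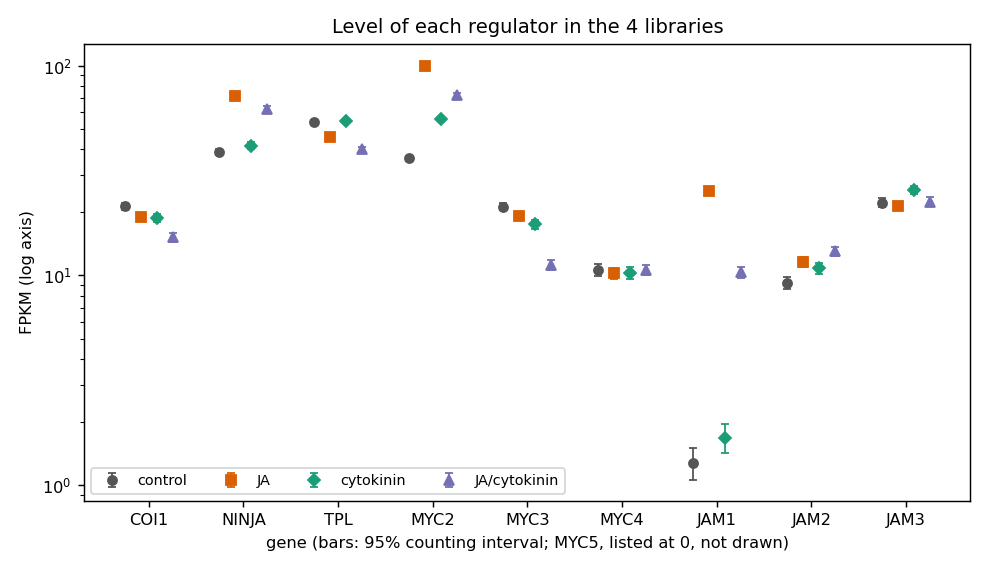
FPKM of the 9 measured genes in the control, JA, cytokinin and JA/cytokinin libraries, on a log axis, with 95% Poisson intervals on estimated fragments (counting error only, 1 library each). JAM1 runs from 1.27 FPKM in control to 25.3 in JA, while MYC4 stays between 10.2 and 10.6. MYC5, listed at 0 in every library, is not drawn.

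With JA alone, 2 of the 9 measured genes were at least 2-fold higher than in control, MYC2 and JAM1, and 0 were at least 2-fold lower. Over all 22291 genes above 0 in the 4 libraries, 20.6% were at least 2-fold apart in either direction, so the 2 genes amount to a share close to that background. What set JAM1 apart was the size of its ratio, which ranked 146 from the highest of the 22291. Among the 9 genes the median log2 ratio came to -0.05, beside -0.02 over all genes. With cytokinin alone, 0 of the 9 passed 2-fold against control, beside 15.0% of all genes, and the median was 0.10 beside 0.05. With both hormones against control, MYC2 and JAM1 were again at least 2-fold higher and 0 were lower, beside 23.0% of all genes, with a median of 0.02 beside 0.04. When JA was present on top of cytokinin (JA/cytokinin against cytokinin), JAM1 was the 1 gene past 2-fold, and it was higher. The background in that comparison was 18.0%, and the medians were 0.05 and 0.04. When cytokinin was present on top of JA (JA/cytokinin against JA), JAM1 was again the 1 gene past 2-fold, now lower. There the background was 17.6%, and the medians were -0.21 and 0.04.

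**Figure D2:**
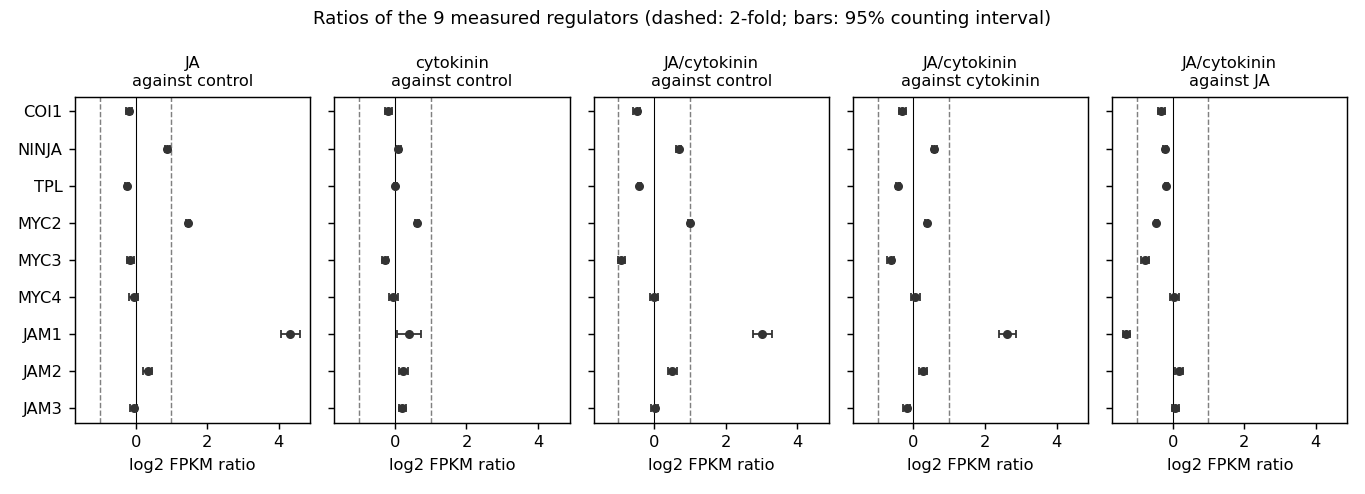
Log2 FPKM ratios of the 9 measured genes in the 5 comparisons, with 95% counting intervals, and dashed lines at 2-fold in either direction. JAM1 and MYC2 lie beyond the line with JA against control (4.32 and 1.46), no gene does with cytokinin against control, and JAM1 lies below the lower line (-1.29) with JA/cytokinin against JA.

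COI1 (AT2G39940, chr2:16672493-16675864, minus strand), the F-box receptor, stayed under 2-fold in all 5 comparisons. Its level was 21.3 FPKM (20.4 to 22.2) in control, 18.9 (18.1 to 19.7) in JA, 18.8 (18.0 to 19.7) in cytokinin and 15.2 (14.5 to 15.9) in JA/cytokinin. Every hormone library was below control, and JA/cytokinin was the lowest, with an interval apart from the other three. The log2 ratio to control was -0.18 with either hormone alone and -0.49 (-0.58 to -0.40) with both. By comparison, the median absolute log2 ratio of all genes was 0.39, 0.28 and 0.44 in the same comparisons. The partners that build the SCF ligase with COI1 were also under 2-fold, with 0 of 4 past the threshold in each of the 5 comparisons. These are the adaptors ASK1 and ASK2, the scaffold CUL1 and the RING protein RBX1. With JA against control their median log2 ratio was -0.08, from -0.19 for ASK2 (71.5 and 62.6 FPKM) to 0.16 for RBX1 (106 and 119 FPKM). As background for this and the lists below, 15.0% to 23.0% of all genes passed 2-fold in the 5 comparisons.

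NINJA (AT4G28910, chr4:14264034-14266786, minus strand), the adaptor between JAZ proteins and TPL, was higher in both libraries with JA. It measured 38.8 FPKM (37.4 to 40.2) in control, 71.8 (69.9 to 73.7) in JA, 41.6 (40.1 to 43.1) in cytokinin and 62.2 (60.5 to 63.9) in JA/cytokinin. The levels with JA did not overlap those without it. The log2 ratio was 0.89 (0.82 to 0.95) for JA against control, or 1.85-fold, and 0.58 (0.52 to 0.65) for JA/cytokinin against cytokinin, or 1.5-fold. Both are short of 2-fold, and 89.0% of all genes lay below NINJA in the first comparison.

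TPL (AT1G15750, chr1:5414817-5421033, minus strand), the co-repressor that NINJA recruits, was slightly lower in the libraries with JA. It measured 53.7 FPKM (52.6 to 54.8) in control and 54.2 (53.0 to 55.3) in cytokinin, against 45.4 (44.4 to 46.4) in JA and 40.1 (39.2 to 41.1) in JA/cytokinin. The log2 ratios to the library without JA were -0.24 (-0.28 to -0.20) and -0.43 (-0.48 to -0.39). The ratio of NINJA to TPL was therefore 0.723 in control and 0.767 in cytokinin, but 1.58 in JA and 1.55 in JA/cytokinin. Of the 4 TPL-related co-repressors TPR1 to TPR4, 0 passed 2-fold in any of the 5 comparisons. Their median log2 ratio with JA against control was 0.01, from -0.14 for TPR1 to 0.08 for TPR3, and their summed level was 82.2, 79.9, 86.6 and 73.1 FPKM in control, JA, cytokinin and JA/cytokinin. TPL shares 103 exonic bases, 2.37% of its exons, with AT1G15740 on the opposite strand.

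MYC2 (AT1G32640, chr1:11798119-11801407, minus strand), the main activator of the JA response in roots, was the most abundant of the 9 in JA and JA/cytokinin. It measured 36.1 FPKM (35.1 to 37.1) in control, 99.3 (97.6 to 100.9) in JA, 55.7 (54.4 to 56.9) in cytokinin and 72.3 (70.9 to 73.6) in JA/cytokinin. No intervals overlapped, and JA/cytokinin lay between cytokinin and JA. JA alone gave 2.75 times the control level, a log2 ratio of 1.46 (1.41 to 1.51). Cytokinin alone gave 1.54 times that level (log2 ratio 0.63, 0.57 to 0.68). JA on top of cytokinin gave 1.30 times the cytokinin level (0.38, 0.33 to 0.42). With both hormones MYC2 was 2.00 times control, at the threshold itself (log2 ratio 1.00, 0.95 to 1.05), and it fell short of 2-fold with a pseudocount or under any of the 3 other scalings of the libraries. In TAIR10.1, 3241 of the 3289 exonic bases of MYC2 (98.5%) are also exonic in AT1G32630 on the opposite strand. Whether strand was used in counting is not given in the sources used here, and without it the fragments of the 2 genes cannot be told apart. AT1G32630 was listed at 5.98, 9.35, 6.05 and 8.22 FPKM, in the order control, JA, cytokinin and JA/cytokinin.

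MYC3 (AT5G46760, chr5:18974022-18976590, plus strand), an activator that acts alongside MYC2, was lowest when both hormones were present. It measured 21.3 FPKM (20.4 to 22.1) in control, 19.2 (18.4 to 20.0) in JA, 17.5 (16.7 to 18.3) in cytokinin and 11.3 (10.7 to 11.9) in JA/cytokinin. Only the JA/cytokinin library stood well below the rest. Its log2 ratio to control was -0.92 (-1.02 to -0.82), a level 1.89-fold lower and just short of the threshold. Against JA it was -0.77 (-0.87 to -0.67) and against cytokinin -0.64 (-0.74 to -0.53).

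MYC4 (AT4G17880, chr4:9933326-9935685, minus strand), the third activator measured, was level across the libraries. It measured 10.6 FPKM (9.99 to 11.3) in control, 10.2 (9.64 to 10.9) in JA, 10.3 (9.63 to 10.9) in cytokinin and 10.6 (10.0 to 11.2) in JA/cytokinin. In all 5 comparisons the counting interval of its log2 ratio included 0, the widest reaching from -0.18 to 0.08. It was the 1 gene of the 9 for which this was so. The ratio of MYC3 to MYC4 was accordingly 2.00 in control, 1.88 in JA, 1.71 in cytokinin and 1.06 in JA/cytokinin.

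MYC5 (AT5G46830, chr5:19002564-19004384, plus strand), an activator of the same bHLH subgroup known for its role in stamens, was listed at 0 in every library. BHLH14, a bHLH relative, was listed at 0 in 3 libraries and at 0.018 FPKM in cytokinin. No ratio was computed for either gene.

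JAM1 (AT2G46510, chr2:19090953-19093373, minus strand), a repressor that competes with MYC2, was the gene of the 9 with the widest range. It measured 1.27 FPKM (1.06 to 1.51) in control, 25.3 (24.4 to 26.3) in JA, 1.67 (1.43 to 1.95) in cytokinin and 10.3 (9.74 to 10.9) in JA/cytokinin. These values rest on an estimated 127, 2650, 168 and 1145 fragments. Both libraries with JA were far above both without it, and the level with JA alone was above that with both hormones. JA alone gave a 19.9-fold higher level than control, a log2 ratio of 4.32 (4.06 to 4.59), and JA on top of cytokinin a 6.17-fold higher level than cytokinin, a log2 ratio of 2.63 (2.39 to 2.87). Against JA the level with both hormones was 2.45-fold lower, a log2 ratio of -1.29 (-1.39 to -1.19). The log2 ratio of cytokinin to control was 0.40 (0.06 to 0.74). JAM1 was the 1 gene of the 9 at least 2-fold higher with JA both without and with cytokinin, beside 5.59% of all genes. Its 5 motif matches are printed above, and a link between them and its levels was not tested.

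JAM2 (AT1G01260, chr1:108946-111699, plus strand), which acts with JAM1, differed little between libraries. It measured 9.18 FPKM (8.59 to 9.80) in control, 11.6 (10.9 to 12.2) in JA, 10.8 (10.2 to 11.5) in cytokinin and 13.0 (12.3 to 13.7) in JA/cytokinin. All 3 hormone libraries lay above control, by log2 ratios of 0.33 (0.21 to 0.46), 0.24 (0.11 to 0.37) and 0.50 (0.38 to 0.62). JAM2 stayed under 2-fold in every comparison. Its 2 G-box matches are printed above, and a link between matches and expression was not tested.

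JAM3 (AT4G16430, chr4:9267260-9269178, plus strand) was the most abundant JAM gene in every library except JA. It measured 22.2 FPKM (21.1 to 23.3) in control, 21.4 (20.4 to 22.5) in JA, 25.6 (24.4 to 26.7) in cytokinin and 22.5 (21.5 to 23.5) in JA/cytokinin. Cytokinin was highest by a small margin, and the other three overlapped. The log2 ratio of JA to control was -0.05 (-0.15 to 0.05). JAM3 shares 85 exonic bases, 4.64% of its exons, with AT4G16440 on the opposite strand.

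Within the activator family the share of MYC2 was higher in all 3 hormone libraries than in control. The summed level of MYC2, MYC3 and MYC4 was 68.0 FPKM in control, 129 in JA, 83.4 in cytokinin and 94.1 in JA/cytokinin. MYC2 supplied 53.1% of that sum in control, 77.1% in JA, 66.7% in cytokinin and 76.8% in JA/cytokinin. Every sum, share and ratio that includes MYC2, here and below, carries the limit given above for its overlap with AT1G32630. MYC3 supplied 31.3% in control and 12.0% in JA/cytokinin. Within the repressor family the share of JAM1 was higher in both libraries with JA. Its summed level was 32.6 FPKM in control, 58.3 in JA, 38.1 in cytokinin and 45.8 in JA/cytokinin. JAM1 supplied 3.89% of that sum in control and 4.4% in cytokinin, against 43.4% in JA and 22.6% in JA/cytokinin. JAM3 supplied 68.0%, 36.7%, 67.1% and 49.0% in control, JA, cytokinin and JA/cytokinin.

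**Figure D3:**
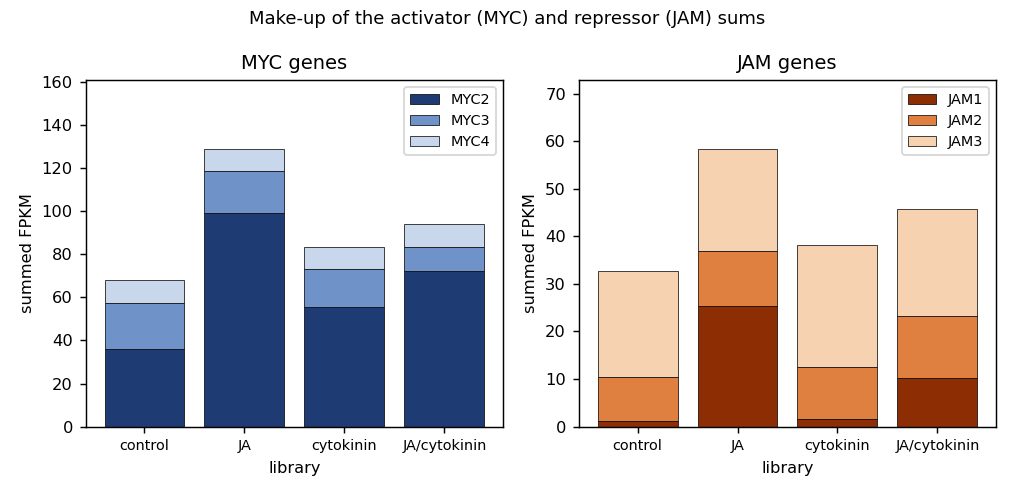
Stacked FPKM of the MYC activators (MYC2, MYC3, MYC4) and of the JAM repressors (JAM1, JAM2, JAM3) in each library. The MYC sum runs from 68.0 FPKM in control to 129 in JA and the JAM sum from 32.6 to 58.3, and MYC2 and JAM1 differ most between these libraries.

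The ratio of the summed JAM level to the summed MYC level was 0.480 in control, 0.453 in JA, 0.456 in cytokinin and 0.487 in JA/cytokinin. The ratio of MYC2 to JAM1 alone was 28.4 in control, 3.92 in JA, 33.2 in cytokinin and 6.99 in JA/cytokinin. MYC2 transcripts outnumbered those of the receptor COI1 by 1.69 to 1 in control, and by 5.26, 2.96 and 4.76 to 1 in JA, cytokinin and JA/cytokinin, on the FPKM scale.

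The JA effect was then compared without cytokinin (JA against control) and with it (JA/cytokinin against cytokinin). These effects share no library. The difference, with minus without, was furthest from 0 for JAM1, at -1.69 on the log2 scale with a counting SE of 0.18, and for MYC2, at -1.08 with a counting SE of 0.03. Over all genes, 14.1% differed by at least 1 in either direction, and 2.27% lay below JAM1 and 4.45% below MYC2. Had the separate hormone ratios multiplied, JAM1 would have reached 33.4 FPKM with both hormones, where 10.3 was measured. Likewise MYC2 would have reached 153 FPKM, where 72.3 was measured. For MYC3 the difference was -0.49, with 11.3 FPKM measured against 15.8 from the product. For NINJA it was -0.31, with 62.2 against 77.0 FPKM. The other 5 genes differed by -0.19 to 0.10, and for MYC4 and JAM2 the counting interval included 0. Without replicates, whether these differences exceed the spread between root samples was not tested.

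**Figure D4:**
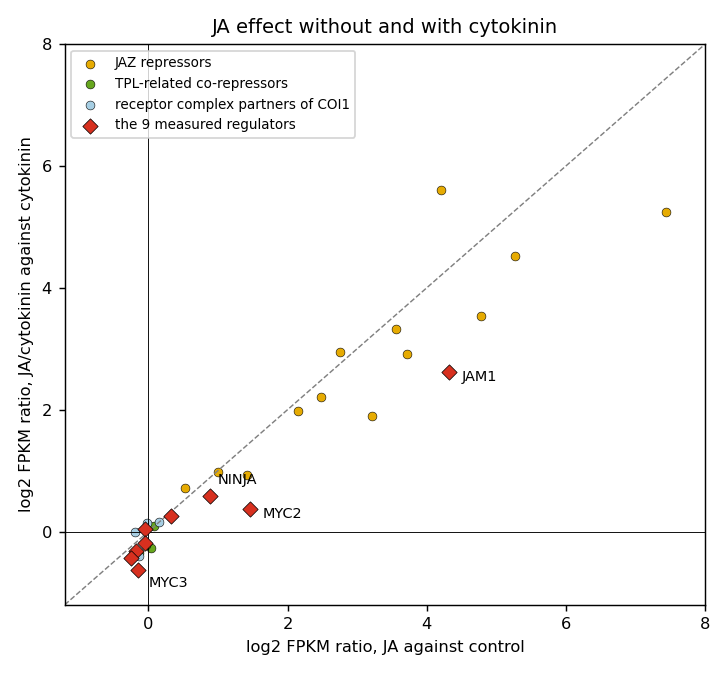
JA effect without cytokinin (JA against control, x axis) and with cytokinin (JA/cytokinin against cytokinin, y axis) as log2 FPKM ratios. Diamonds are the 9 measured regulators, circles the JAZ repressors, TPL-related co-repressors and COI1 partners, and the dashed line marks equal effects. Of the diamonds, JAM1 (4.32 and 2.63) and MYC2 (1.46 and 0.38) lie furthest below it.

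Genes of the JAZ repressors, which COI1 removes and which bind the MYC activators, had a median JA effect above every measured MYC gene. Not every JAZ gene exceeded MYC2, since JAZ11 had a log2 ratio of 0.53 and MYC2 1.46 with JA against control. With JA against control, 11 of 13 JAZ genes were at least 2-fold higher and 0 lower, beside 20.6% of all genes in either direction. The JAZ median log2 ratio was 3.21. The highest was JAZ10, from 2.59 to 449 FPKM, and the lowest was JAZ11, from 17.6 to 25.4 FPKM. With JA/cytokinin against cytokinin, 10 of 13 were at least 2-fold higher and 0 lower, beside 18.0% of all genes, with a median of 2.91. The summed JAZ level was 162, 1437, 187 and 978 FPKM in control, JA, cytokinin and JA/cytokinin. Per unit of summed MYC level this was 2.39, 11.2, 2.24 and 10.4. In each library with JA, summed JAZ transcripts were thus higher relative to the activators than in either library without it.

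Transcripts on a list of genes for MYC2 cofactors, turnover and signal supply were under 2-fold throughout. The list held MED25, the Mediator subunit that MYC2 binds, PUB10, an E3 ligase that degrades MYC2, EIN3 and EIL1, ethylene regulators that interact with MYC2, JAR1, the enzyme that conjugates JA to isoleucine, and BHLH14. Of the 5 measured, 0 passed 2-fold in any of the 5 comparisons. With JA against control the median log2 ratio was -0.19, from -0.80 for PUB10 (16.6 and 9.55 FPKM) to 0.09 for EIN3 (58.2 and 61.9 FPKM). With JA/cytokinin against control all 5 ratios were below 0, with a median of -0.51 beside 0.04 over all genes. Of the genes that JA is known to induce, VSP1, VSP2, JR2, LOX3, AOS and OPR3 were above 0 in all libraries. With JA against control 6 of 6 were at least 2-fold higher (median log2 ratio 2.75), beside 20.6% of all genes in either direction. On top of cytokinin 6 of 6 were also at least 2-fold higher (median 2.76), beside 18.0% of all genes. JR2, counted among the 6, was near 0 in cytokinin, at 0.0192 FPKM. LOX2, also on that list, was listed at 0 in cytokinin, so no ratio was computed. Its levels were 0.444, 11.9, 0 and 0.0446 FPKM in control, JA, cytokinin and JA/cytokinin. LOX2 was thus highest with JA alone and near 0 with both hormones, but the list did not share this pattern. With JA/cytokinin against JA, 2 of the 6 were at least 2-fold higher and 1 lower, beside 17.6% of all genes. The median log2 ratio of the 6 was -0.31. VSP1 measured 26.2 FPKM in JA and 273 in JA/cytokinin, and VSP2 measured 97.6 and 214 FPKM.

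The patterns of COI1, MYC2 and JAM1 over the 4 libraries were set beside those of 15163 genes with a mean of at least 5 FPKM, by the Euclidean distance between log2 levels centred on each gene's mean. JAM1 had few near matches. Nearest was AT3G02620, annotated as a stearoyl-acyl-carrier-protein desaturase, at a distance of 0.18 and with 9.32, 190, 11.9 and 65.9 FPKM in control, JA, cytokinin and JA/cytokinin. AT2G04080, a MATE efflux family gene, followed at 0.34 and AT4G37850, a bHLH gene, at 0.36. Within a distance of 0.25 there was 1 gene for JAM1, 11 for MYC2 and 990 for COI1. The distance was not scaled by range, so these counts in part restate how widely each gene varied. The highest level was 19.9 times the lowest for JAM1, 2.75 times for MYC2 and 1.40 times for COI1. For MYC2 the nearest were AT4G22592 at 0.06, the glutathione transferase gene GSTU2 at 0.15 and NF-YA2, a subunit of a CCAAT-binding factor, at 0.17. AT4G22592 measured 32.1, 90.0, 47.8 and 63.7 FPKM. For COI1 they were AT3G19515, the calcium-dependent kinase gene CPK32 and the plastid glucose transporter gene PGLCT (AT5G16150), all within 0.03, among many genes that varied as little. Each likeness rests on 4 values.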

How the data were processed

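The authors sequenced polyA-selected RNA of 4 root libraries from both ends and deposited 1 FPKM value per TAIR10 gene and library, calculated with Cufflinks. The submitters' processing notes also name Bowtie. Versions, options and strand setting are not given in the sources used here. The deposited counts of reads are those sequenced, before alignment. Conditions were read from the sample labels, and each had 1 library, so nothing was averaged and no test was run.

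Ratios of FPKM were taken without a pseudocount over the 22291 genes above 0 throughout, at a threshold of 2-fold. Depth was estimated from the step between low FPKM values of 25886 single-transcript genes, with a fragment length of 160. Intervals are exact Poisson intervals on the estimated fragments and, for ratios, exact conditional intervals, at the 95% level. PCR copies are not independent, so they cover counting error only. Every 50-base word of the 10 genes' exons was looked up in the TAIR10.1 genome, and 5 words of TPL (0.113%) and 0 of the other genes occurred elsewhere. Starts in TAIR10.1 may differ from those of TAIR10. Genes named with values are the 10 members, genes overlapping them, and the 3 most alike to COI1, MYC2 and JAM1. From the lists they are the highest and lowest with JA against control, and genes at or near 0 in a library. The members and lists were chosen with earlier results of these data known. Alternatives were pseudocounts of 0.1 and 1, scaling by median ratio, by a trimmed mean of log ratios or by summed FPKM (TPM), thresholds of 1.5-fold and 3-fold, and a mean of at least 1 FPKM. Steps were tested on simulated data and run in Python 3.11.15 with scipy 1.17.1, pandas 2.3.3 and numpy 2.4.6.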

Additional observations from a re-analysis of the deposited data

How the results depend on the processing

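No paired analysis was possible because a lone library stood for every condition, and no replicate could be left out. The 2 genes at least 2-fold apart with JA/cytokinin against control became 1, JAM1, with a pseudocount of 0.1 or 1, with median ratio, trimmed mean or TPM scaling, and at 3-fold, since MYC2 lay at the threshold, and 4 at 1.5-fold. At 1.5-fold there were 3 genes with JA against control and 1 with cytokinin against control. The same threshold gave 2 with JA/cytokinin against cytokinin and 2 with JA/cytokinin against JA. At 3-fold there was 1 with JA against control and 0 with JA/cytokinin against JA. Over all genes, 4598, 3334, 5119, 4006 and 3920 passed 2-fold with JA, cytokinin and JA/cytokinin against control, and JA/cytokinin against cytokinin and against JA. In the same order 2553, 1703, 2989, 1911 and 2013 passed with a pseudocount of 1, 8038, 6028, 8885, 7760 and 7019 at 1.5-fold, and 2381, 1693, 2800, 1853 and 2014 at 3-fold. Of the 45 log2 ratios of the 9 measured genes, 45 stayed within their counting interval with a pseudocount of 0.1, 42 with 1, 44 with median ratio, 41 with trimmed mean and 37 with TPM scaling. The largest move was 0.78 on the log2 scale, for JAM1 with JA against control under a pseudocount of 1. Under the 3 scalings the largest was 0.11, and signs changed only for JAM3, TPL and MYC4 ratios near 0.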

Other observations

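COI1 belongs to the same small F-box family as the auxin receptors TIR1 and AFB1 to AFB5. Of these 6 genes, 0 passed 2-fold in any of the 5 comparisons. With JA against control their median log2 ratio was -0.24, and AFB1 was lowest at -0.79 (66.5 and 38.6 FPKM). With JA/cytokinin against cytokinin all 6 ratios were below 0, from -0.55 for AFB1 to -0.04 for AFB4, where COI1 was at -0.31.

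The type-A response regulators, which cytokinin induces and which dampen its signal, differed most between the libraries with JA. Of 8 genes, 4 were at least 2-fold lower with JA against control, beside 20.6% of all genes in either direction. With JA/cytokinin against JA, 6 were at least 2-fold higher, beside 17.6% of all genes. The median log2 ratios were -0.85 and 1.58. These comparisons share the JA library. ARR9 had the highest ratio with JA against control, at 38.7, 71.0, 38.5 and 73 FPKM in control, JA, cytokinin and JA/cytokinin. ARR15 had the lowest, at 3.15, 0.459, 11 and 3.41 FPKM. With JA/cytokinin against cytokinin ARR15 was the 1 gene of the 8 past 2-fold, with a log2 ratio of -1.70, and the median of the 8 was 0.31.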
